A study of Homo sapiens with 16 samples.

Results

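SAM68 siRNA was compared with control siRNA in U2OS cells, an established human osteosarcoma line, in 4 of the 16 RNA-seq libraries of the series. These 4 were the libraries whose labels name U2OS cells and an siRNA, 2 for SAM68 siRNA and 2 for control siRNA. U2OS cells labelled wild type received siRNAs against SAM68, or a non-targeting siRNA pool as the control, with the same lipid reagent and at the same final concentration of 50 nM, and were harvested after 48 h. The 4 other U2OS libraries, from cells given a plasmid, entered the fits only to share the estimate of the spread. The labels leave unsaid whether libraries with the same siRNA were separate cultures. P-values therefore reflect only how far these libraries scatter, which may be technical. The labels give no second, independent siRNA and no rescue, so effects of the siRNAs themselves and of lost SAM68 cannot be told apart.

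SAM68, encoded by KHDRBS1, belongs to the STAR family of RNA-binding proteins, which join signalling by tyrosine kinases to RNA processing. It binds adenine and uracil rich RNA through a KH domain and is known as a regulator of alternative splicing and of polyadenylation site choice. It is also a known protein partner of the long noncoding RNA NORAD, which binds Pumilio proteins in the cytoplasm. Pumilio proteins bind a short motif in the 3′ UTRs of mRNAs and recruit the CCR4-NOT deadenylase, and transcripts bound in this way are usually shortened at the tail and degraded. The comparison therefore bears on which transcripts change in level, or in the isoforms that make up that level, once SAM68 mRNA is low.

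Total expected counts were 11349545 and 19367913 under SAM68 siRNA and 20546956 and 25764664 under control siRNA. The libraries within a group differed by more than sampling noise. Their median absolute log2 difference per gene was 0.386 between the libraries under SAM68 siRNA and 0.206 between those under control siRNA, and log CPM (counts relative to the scaled library total) correlated across genes at 0.965 and 0.987 in the same order. Defining mesenchymal markers were present, with VIM at 2580 and 2739 TPM (a level that also allows for transcript length) under SAM68 siRNA and at 2725 and 2414 TPM under control siRNA. RUNX2, a bone transcription factor, had 16.6 to 29.2 TPM, while COL1A2 stayed at or below 0.46 TPM and TWIST1 was listed at 0 in all 4 libraries. The 8 mesenchymal markers summed to 4001 and 5008 TPM under SAM68 siRNA and to 4065 and 4459 TPM under control siRNA. Of 12 markers of other cell types, 9 stayed below 1 TPM and 3 of these were listed at 0 (VIL1, CD3E and ALB). EPCAM, an epithelial adhesion molecule, stood highest of them at 5.37 to 7.87 TPM, and the 12 summed to 9.62 and 12.1 TPM under SAM68 siRNA and to 10.9 and 12.7 TPM under control siRNA.

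KHDRBS1, the targeted gene on chromosome 1, was low in both libraries under SAM68 siRNA. It had 80.7 and 48.6 CPM under SAM68 siRNA, against 245 and 249 CPM under control siRNA. The groups did not overlap, and the mean was 64.6 ± 22.7 CPM under SAM68 siRNA and 247 ± 2.80 CPM under control siRNA (SD, n = 2 each), so that 26.2% of the control level was left. In bulk RNA, a lower level in every cell and a loss in only some of the cells cannot be told apart. In TPM the level averaged 46.6 ± 18.8 under SAM68 siRNA and 176 ± 0.658 under control siRNA. The log2 fold change was -1.94 ± 0.25 (SE), the lowest among 11247 genes that had a row of their own and at least 5 CPM in the higher group. Its p was the second smallest of 15658 tested rows, yet it did not pass the threshold in edgeR's quasi-likelihood test (Benjamini-Hochberg adjusted p = 0.185). DESeq2 on the same counts gave an adjusted p of 1.26e-09. The exact permutation test of 2 against 2 libraries gave a two-sided p of 0.333, which is the smallest this design allows. Over 11 alternative settings the log2 fold change lay between -2.26 and -1.61, and the adjusted p passed the threshold in 3 of them. The highest adjusted p over these settings was 0.986, in edgeR. Without SAM68 siRNA replicate 1 the adjusted p in edgeR was 0.00817. The mean length of KHDRBS1 transcripts overlapped between the groups, at 2874 and 2882 bases under SAM68 siRNA and 2878 and 2874 bases under control siRNA.

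**Figure D1:**
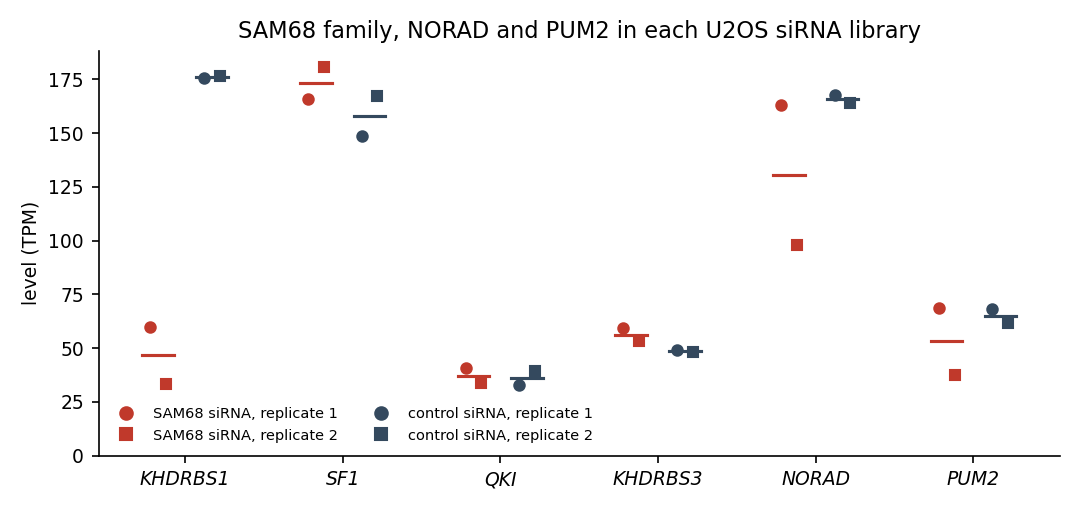
Level in TPM (vertical axis) of the SAM68 family members that were tested, NORAD and PUM2 in each library, with SAM68 siRNA left of control siRNA for each gene, 1 point per library and a bar at the mean. KHDRBS1 lies at 59.9 and 33.4 TPM under SAM68 siRNA and near 176 TPM under control siRNA, while the groups of SF1 and QKI overlap.

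Apart from KHDRBS1, most expressed genes had small fitted differences from control siRNA. The fit averages 2 SAM68 siRNA libraries that departed from the controls in opposite directions along transcript GC content, as described below. A small fitted value therefore does not show that a level was unchanged. Of the 11247 genes, 98.6% had a log2 fold change within 0.5 of 0, where the median standard error was 0.228. Beyond a 2-fold difference (1 on the log2 scale) lay 6 genes that were lower under SAM68 siRNA and 3 that were higher. These 9 were chosen by size after their values were seen. The lower ones besides KHDRBS1 were KLHL4, the protocadherin PCDH17, the noncoding RNA PSLNR, the mucin MUC15 and the secreted protease inhibitor gene PI15. PCDH17 had 4.65 and 1.55 CPM under SAM68 siRNA and 7.51 and 7.10 CPM under control siRNA, with a log2 fold change of -1.29 ± 0.45 (SE). The higher ones were the zinc finger gene ZNF302, UQCRHL, which resembles a subunit gene of respiratory complex III, and RMRP, the RNA of the mitochondrial RNA processing ribonuclease. ZNF302 had 185 and 57.6 CPM under SAM68 siRNA and 40.9 and 40.1 CPM under control siRNA, so a single library held most of its difference. RMRP had 24.1 and 0.599 CPM under SAM68 siRNA and 3.12 and 6.91 CPM under control siRNA, and its groups overlapped. Besides KHDRBS1, none of the 9 passed either tool at an adjusted p below 0.05 with the filter on low counts. Without that filter edgeR called ZNF302 (adjusted p = 0.0159).

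**Figure D2:**
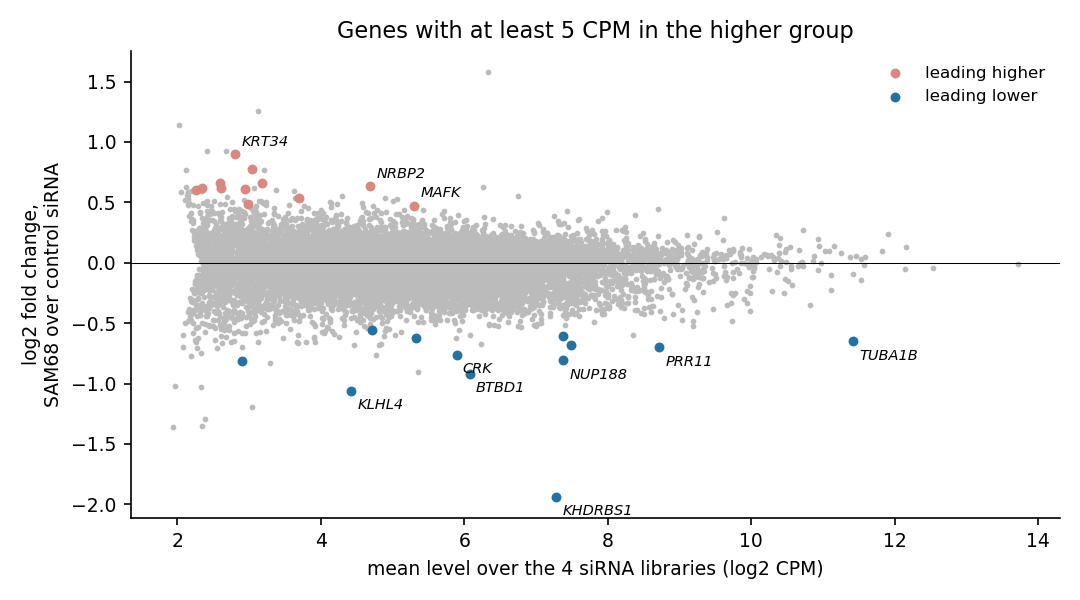
Log2 fold change of SAM68 siRNA over control siRNA (vertical axis) against the mean level in log2 CPM (horizontal axis) for genes with at least 5 CPM in the higher group. Besides the 11247 genes with a row of their own, main rows of genes split over several rows are drawn. Coloured points are the leading higher and leading lower genes described in the text, and KHDRBS1 is the lowest of the coloured points.

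Across all tested rows edgeR called 1 (0.00639%) and DESeq2 called 7 (0.0447%). At an unadjusted edgeR p below 0.05 there were 166 rows (1.06%), 56 higher (0.358%) and 110 lower (0.703%). The groups did not overlap in 2956 rows (18.9%). The row edgeR called was a further genomic copy of ZBED1, a zinc finger gene whose reads are divided over several rows. That row had 9.22 and 8.49 CPM under SAM68 siRNA and 0 in both control libraries (adjusted p = 0.0122). The 4 rows of ZBED1 together had 18.5 and 30.8 CPM under SAM68 siRNA and 21.8 and 27.9 CPM under control siRNA, so their sum overlapped between the groups. Besides KHDRBS1 and the ZBED1 copy, DESeq2 called copy rows of ASMTL, SMN2, LOC100132287 and LOC100132062, and SPDYE8. Summed over its 4 rows, ASMTL had 12.2 and 14.6 CPM under SAM68 siRNA and 12.4 and 13.8 CPM under control siRNA. The called copy row of SMN2 had 0 in both SAM68 siRNA libraries and 0 and 9.76 CPM under control siRNA, so its call rests on a single library. SMN2 is a near-identical copy of the survival motor neuron gene SMN1 and shares rows with it. The 5 rows that name SMN2 together had 20.04 and 25.1 CPM under SAM68 siRNA and 18.5 and 33.8 CPM under control siRNA. These sums may include reads of SMN1. The sums of ASMTL and of SMN2 overlapped between the groups. The copy rows of LOC100132287 and LOC100132062 each held the same values, 21.0 and 4.80 CPM under SAM68 siRNA and 2.88 and 2.97 CPM under control siRNA. Over the 2 rows of each, the sums were 21.0 and 5.35 CPM under SAM68 siRNA and 4.68 and 3.396 CPM under control siRNA, and these did not overlap. SPDYE8, in a family of near-identical speedy/RINGO genes, had 1.94 and 1.05 CPM under SAM68 siRNA and 0 in both control libraries. For all of these rows the split of reads between copies is uncertain.

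The leading lower genes were those with the smallest unadjusted p among genes whose groups did not overlap and whose higher group averaged at least 5 CPM. Of all tested rows, 9.42% had groups that did not overlap in this direction. Besides KHDRBS1 there were 11, and none passed the test (adjusted p = 1 for each, edgeR's quasi-likelihood test). They included a nuclear pore gene, a tubulin, an adaptor of tyrosine kinase signalling and a subunit of the growth regulator mTORC1. NUP188, a scaffold nucleoporin of the nuclear pore, had 126 and 116 CPM under SAM68 siRNA and 203 and 220 CPM under control siRNA (log2 fold change -0.81 ± 0.18, SE). CRK, an SH2 and SH3 domain adaptor, had 48.2 and 40.1 CPM under SAM68 siRNA and 74.3 and 75.0 CPM under control siRNA. TUBA1B, an abundant alpha-tubulin, had 2182 and 2090 CPM under SAM68 siRNA and 3111 and 3580 CPM under control siRNA (log2 fold change -0.65 ± 0.16, SE). In each of these genes both libraries under SAM68 siRNA lay well below both control libraries. Groups that did not overlap were, however, a condition of their choice. RPTOR, which encodes the raptor subunit of mTORC1, had 33.1 and 30.1 CPM under SAM68 siRNA and 48.9 and 48.5 CPM under control siRNA. ARL6IP1, which shapes tubules of the endoplasmic reticulum, had 143 and 132 CPM under SAM68 siRNA and 227 and 214 CPM under control siRNA. PRR11 had 359 and 284 CPM under SAM68 siRNA and 491 and 553 CPM under control siRNA. RAB31, a small GTPase of endosomal traffic, had 128 and 135 CPM under SAM68 siRNA and 182 and 217 CPM under control siRNA. These 4 genes had log2 fold changes between -0.70 and -0.61.

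BTBD1 and KLHL4 showed wider gaps between the libraries of SAM68 siRNA. BTBD1, which encodes a BTB domain protein, had 58.1 and 35.4 CPM under SAM68 siRNA and 90.5 and 85.7 CPM under control siRNA (log2 fold change -0.92 ± 0.26, SE). KLHL4, of the kelch-like family, had 18.4 and 9.54 CPM under SAM68 siRNA and 29.3 and 28.4 CPM under control siRNA (log2 fold change -1.06 ± 0.31, SE). Both were lowest in SAM68 siRNA replicate 2. CDH12, a cadherin, had 5.75 and 5.09 CPM under SAM68 siRNA and 8.32 and 10.7 CPM under control siRNA. CRY1, a repressor of the circadian clock, had 22.3 and 20.03 CPM under SAM68 siRNA and 32.9 and 29.4 CPM under control siRNA.

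The 12 leading higher genes had log2 fold changes between 0.47 and 0.90, and none passed the test (adjusted p = 1 for each in edgeR). Of all tested rows, 9.46% had groups that did not overlap in this direction. KRT34, a hair keratin, had 8.79 and 9.34 CPM under SAM68 siRNA and 5.53 and 4.21 CPM under control siRNA (log2 fold change 0.90 ± 0.22, SE). ODAPH, known from tooth enamel, had 11.8 and 9.04 CPM under SAM68 siRNA and 5.15 and 6.99 CPM under control siRNA. MAFK, a small MAF transcription factor, had 47.9 and 43.8 CPM under SAM68 siRNA and 32.6 and 33.4 CPM under control siRNA (log2 fold change 0.47 ± 0.18, SE). In these 3 genes both SAM68 siRNA libraries lay clearly above both controls, though groups that did not overlap were a condition of their choice. NRBP2, a pseudokinase gene, had 38.3 and 24.6 CPM under SAM68 siRNA and 18.7 and 21.6 CPM under control siRNA, with SAM68 siRNA replicate 1 the highest library. COL7A1, the collagen of anchoring fibrils, had 13.4 and 8.84 CPM under SAM68 siRNA and 6.38 and 7.60 CPM under control siRNA. SYN2, a synapsin, had 8.37 and 9.99 CPM under SAM68 siRNA and 6.57 and 6.56 CPM under control siRNA. The remaining 6 were LY6G5B, PRELID3A, ADM5, GPR89B, FRMD6-AS1 and TMEM132D-AS1, with log2 fold changes between 0.54 and 0.66. GPR89B is uncertain because it has a near-identical copy. FRMD6-AS1 and TMEM132D-AS1 are antisense genes and are uncertain without knowing whether strand was used in counting.

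**Figure D3:**
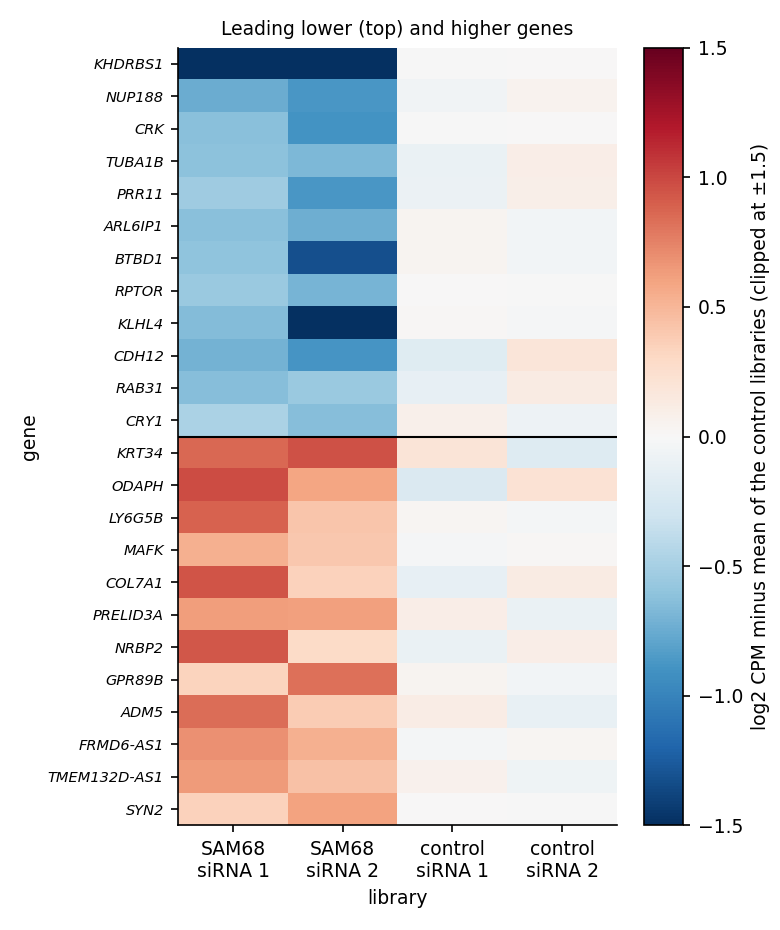
Log2 CPM minus the mean of the control libraries (colour, clipped at 1.5 each way) for the 12 leading lower genes above the line and the 12 leading higher genes below it (rows), with the SAM68 siRNA libraries left of the control siRNA libraries (columns). KHDRBS1 has the darkest pair of cells, and BTBD1 and KLHL4 are darker in SAM68 siRNA replicate 2.

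The libraries also differed along the base composition of transcripts, which has to be read beside every small shift of a gene group. Across 13418 genes with a GC content, the log2 fold change rank-correlated with transcript GC content (Spearman rho = 0.433, across genes that share the same 4 libraries). Within SAM68 siRNA the ratio of replicate 2 to replicate 1 had a rho of 0.667, and within control siRNA it had 0.471. SAM68 siRNA replicate 1 over the control mean had a rho of -0.377 and SAM68 siRNA replicate 2 had 0.677, so the SAM68 siRNA libraries departed from the controls in opposite directions. The median log2 fold change was -0.162 among the 3355 genes poorest in GC and 0.0623 among the 3355 richest in GC. An offset per gene and library for GC content and length left KHDRBS1 at -1.93. The offset was fitted to the deviations of these same libraries, so the rho of -0.000108 after it follows from its construction. It would also remove any effect of the siRNAs that follows GC content or length. Medians of gene groups below are therefore given with and without this offset, beside -0.00724 without it and 0.0237 with it over all tested rows.

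**Figure D4:**
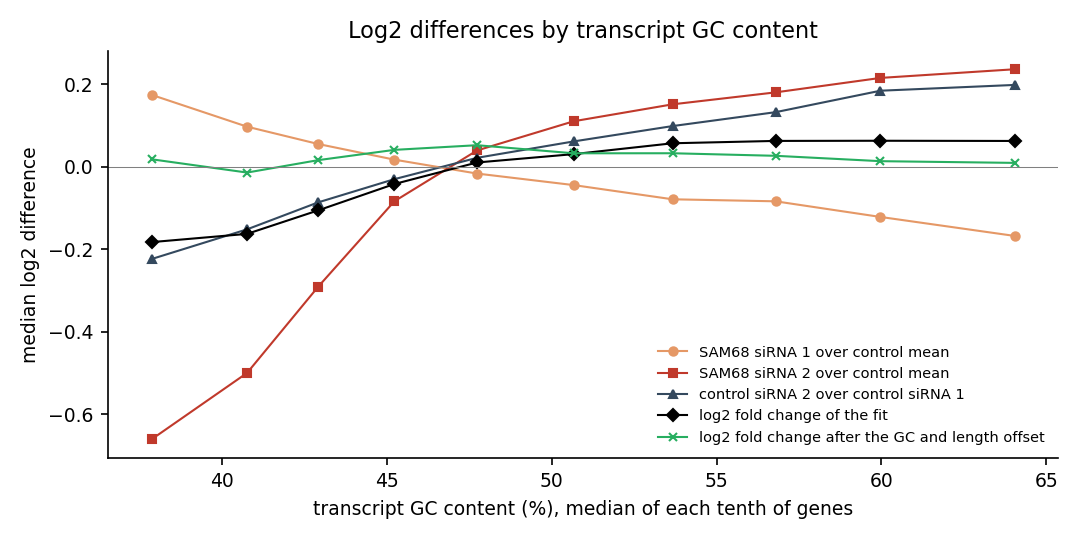
Median log2 difference (vertical axis) in 10 groups of nearly equal size, ordered by transcript GC content in percent (horizontal axis), for each SAM68 siRNA library over the control mean, for the control libraries over each other, and for the fitted fold change with and without the GC and length offset. The lines of SAM68 siRNA replicate 1 and replicate 2 cross, with medians of 0.17 and -0.66 in the group poorest in GC.

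The STAR relatives of SAM68 had small fitted differences, and no member of the family passed the test. The median over the 4 tested was 0.10 (0.162 with the offset). KHDRBS3 (SLM2), the closest relative detected, had 53.02 and 51.4 CPM under SAM68 siRNA and 45.5 and 45.0 CPM under control siRNA (log2 fold change 0.21 ± 0.19, SE). Its groups did not overlap, but the difference was close to 1 standard error. SF1, which binds the branch point in splicing, had 248 and 287 CPM under SAM68 siRNA and 223 and 255 CPM under control siRNA. QKI, a regulator of splicing and mRNA stability, had 203 and 176 CPM under SAM68 siRNA and 168 and 200 CPM under control siRNA, and its log2 fold change of 0.04 ± 0.26 (SE) became 0.37 with the offset. KHDRBS2 (SLM1) lay below the filter on low counts. In TPM, SF1 was the most abundant of the 3 relatives tested, at 166 and 181 under SAM68 siRNA and 149 and 167 under control siRNA.

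Among 20 kinases, methylases and adaptors known to modify or bind SAM68, all were tested and none passed, with 8 positive and 12 negative log2 fold changes and a median of -0.0173 (0.0156 with the offset). DHX9, an RNA helicase, had 522 and 349 CPM under SAM68 siRNA and 535 and 506 CPM under control siRNA. PIK3R1, the regulatory subunit of phosphoinositide 3-kinase, had 51.9 and 26.7 CPM under SAM68 siRNA and 50.2 and 50.0 CPM under control siRNA. In both genes SAM68 siRNA replicate 1 was at the control level and replicate 2 was below it. CDK1, the mitotic kinase that phosphorylates SAM68, had 214 and 130 CPM under SAM68 siRNA and 247 and 179 CPM under control siRNA, with overlapping groups.

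NORAD and PUM2, the partners through which SAM68 meets the Pumilio system, did not pass the test. NORAD had 420 and 273 CPM under SAM68 siRNA and 446 and 442 CPM under control siRNA, with a log2 fold change of -0.36 ± 0.23 (SE) that was -0.19 with the offset. The 2 SAM68 siRNA libraries lay below both controls, replicate 1 only slightly. PUM2, a Pumilio protein, had 208 and 122 CPM under SAM68 siRNA and 212 and 196 CPM under control siRNA, and its groups overlapped (log2 fold change -0.31 ± 0.27, SE). Without SAM68 siRNA replicate 2 its log2 fold change turned to 0.02. Of the 9 tested genes among NORAD, Pumilio proteins and NORAD's protein partners, 7 were negative and 2 positive, with a median of -0.185 (-0.0551 with the offset). That median was 0.032 without SAM68 siRNA replicate 2. CDC5L, a component of the PRP19 splicing complex, had 181 and 98.1 CPM under SAM68 siRNA and 179 and 175 CPM under control siRNA.

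Reported Pumilio targets were the group in which altered Pumilio activity would be sought. NORAD carries 15 copies of TGTANATA, the Pumilio motif with N for any base, in a transcript of 5339 bases on the minus strand of chromosome 20 (GRCh38, GENCODE release 29). Here 3 NORAD sites are shown beside the sites of the reported targets with the smallest p, with the motif in capitals, written as DNA 5′ to 3′ on the strand of the gene. FOXP1 lies on the minus strand, and CDK1 and SIRT1 lie on the plus strand.
NORAD site 1 (chr20:36050182-36050211): tggaaggcctgTGTATATAatatgaaaaag
NORAD site 3 (chr20:36049702-36049731): aaatcacatttTGTAAATAcctttttgtta
NORAD site 15 (chr20:36046344-36046373): attagcctattTGTAAATAcctttgttata
FOXP1 3′ UTR site 1 (chr3:70956224-70956253): gtttattacgtTGTACATAtatcccgatgt
FOXP1 3′ UTR site 2 (chr3:70955352-70955381): atcaaggcttaTGTACATAcgtgaagagtt
CDK1 3′ UTR site 1 (chr10:60794113-60794142): taacttaaaaaTGTAAATAttctatatgaa
SIRT1 3′ UTR site 1 (chr10:67916881-67916910): aaattcatatgTGTATATAtaatttttttt
SIRT1 3′ UTR site 2 (chr10:67918220-67918249): tctttttatatTGTACATAgtcttttatgt

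All 25 reported targets were tested and none passed. FOXP1, a forkhead transcription factor, had 29.9 and 29.8 CPM under SAM68 siRNA and 31.0 and 43.3 CPM under control siRNA (log2 fold change -0.32 ± 0.22, SE). SIRT1, a protein deacetylase, had 50.6 and 25.3 CPM under SAM68 siRNA and 50.8 and 44.2 CPM under control siRNA (log2 fold change -0.33 ± 0.33, SE). The groups of FOXP1 were parted narrowly and those of SIRT1 overlapped. Of the 25, 18 had a negative log2 fold change, where 51.4% of all tested rows did, and the median was -0.101 (-0.0454 with the offset). The groups did not overlap for 2 members in each direction, close to the share of all tested rows (9.46% higher and 9.42% lower). Without SAM68 siRNA replicate 2 the median turned to 0.129. The median GC content of the targets was 42.7%, against 49.3% over all tested rows.

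Genes were also grouped by copies of the motif itself, searched on the sense strand in the longest annotated 3′ UTR. The motif was present in 20 of the 24 reported targets with a 3′ UTR, and 12 of them had at least 2 copies. Of 13235 genes with a 3′ UTR, 70% had no copy, 19% had 1 copy and 11% had at least 2. The median log2 fold change was -0.102 with at least 2 copies, -0.0389 with 1 copy and 0.00879 with none. With the offset these medians were 0.0323, 0.0279 and 0.0208. The median GC content of the 3′ UTR was 36.9% with at least 2 copies, 39.7% with 1 copy and 46.8% with none. Its median length was 3950, 2510 and 1300 bases in the same order. No gene was called in any of these groups, with or without the motif. The only row edgeR called, the ZBED1 copy, was not part of this grouping.

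**Figure D5:**
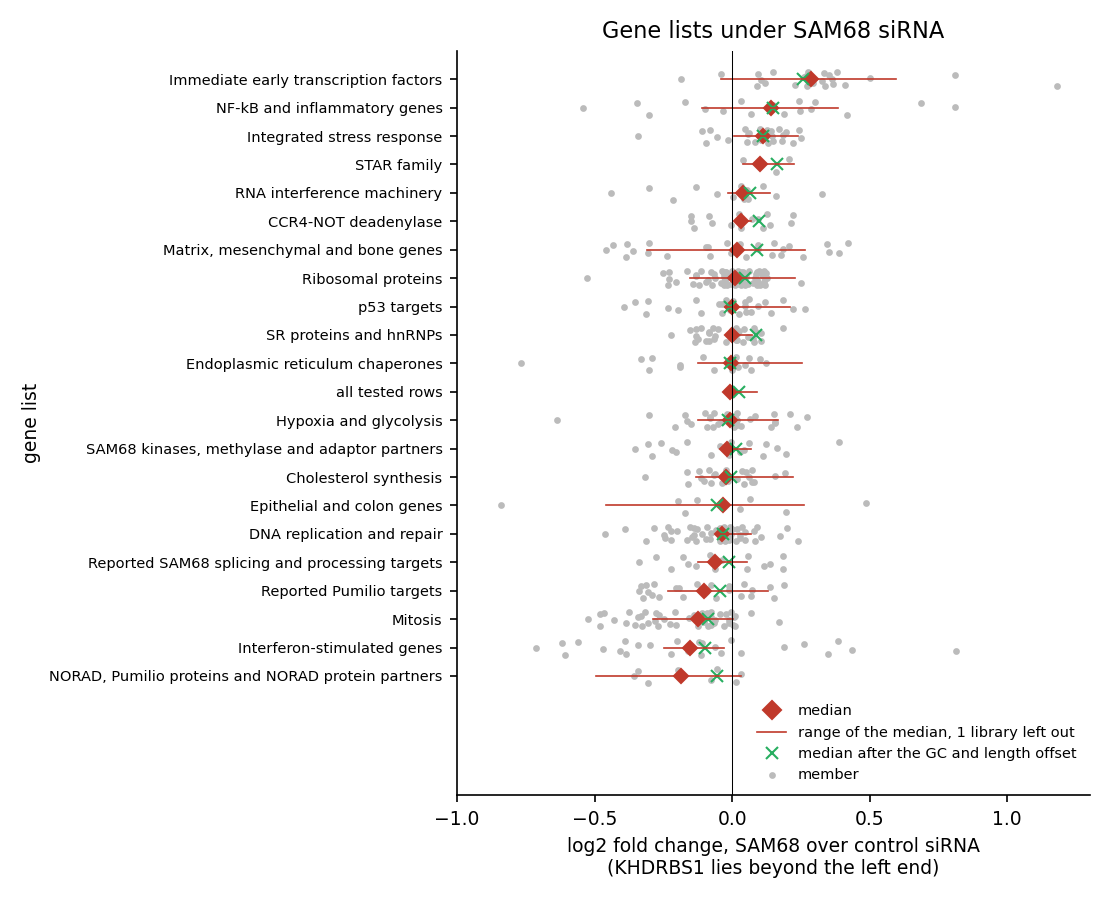
Log2 fold change of SAM68 siRNA over control siRNA (horizontal axis) for the tested members of each gene list (grey points), with the list's median, its range when each library in turn was left out (line), and its median with the GC and length offset (cross); lists run down the page from the highest to the lowest median. Medians range from 0.285 for immediate early genes to -0.185 for NORAD and its partners, and most ranges include 0.

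Genes of RNA processing and decay gave small differences on both sides of 0. All 15 genes of the CCR4-NOT deadenylase and its adaptors were tested, with 9 positive and 6 negative and a median of 0.0328 (0.0962 with the offset). CNOT11, a subunit of the complex, had 83.0 and 94.6 CPM under SAM68 siRNA and 79.9 and 72.6 CPM under control siRNA. TOB1, an adaptor that recruits the deadenylase, had 21.6 and 19.6 CPM under SAM68 siRNA and 15.9 and 19.6 CPM under control siRNA. CNOT8, a catalytic subunit, had 45.8 and 47.3 CPM under SAM68 siRNA and 54.0 and 49.3 CPM under control siRNA. The groups of these 3 genes, the members with the smallest unadjusted p, did not overlap, though those of TOB1 nearly touched. Over the list the groups did not overlap in 3 toward higher and in 1 toward lower values, beside 9.46% and 9.42% of all tested rows. The median of the list was 0.0553 in SAM68 siRNA replicate 1 and -0.0608 in replicate 2 over the control mean. Of 33 tested SR proteins and hnRNPs, the splicing factors that act beside SAM68, 16 were positive and 17 negative, with a median of -0.00183 (0.0852 with the offset). HNRNPH1 had 426 and 225 CPM under SAM68 siRNA and 378 and 382 CPM under control siRNA, with overlapping groups. HNRNPL had 381 and 385 CPM under SAM68 siRNA and 444 and 398 CPM under control siRNA.

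The RNA interference machinery, which an siRNA engages whatever its target, had 14 tested genes with a median of 0.0379 (0.0647 with the offset). Of these, 1 had an unadjusted p below 0.05, as did 1.06% of all tested rows. AGO3, an Argonaute protein, had 30.2 and 28.0 CPM under SAM68 siRNA and 38.1 and 40.9 CPM under control siRNA (log2 fold change -0.44 ± 0.18, SE), and -0.27 with the offset. AGO4 had 20.6 and 20.9 CPM under SAM68 siRNA and 15.7 and 17.4 CPM under control siRNA (log2 fold change 0.33 ± 0.23, SE). The pair thus differed in direction, each with libraries that did not overlap, and neither passed the test. PRKRA, a partner of Dicer, had 55.7 and 51.6 CPM under SAM68 siRNA and 68.1 and 56.7 CPM under control siRNA.

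Reported targets of SAM68 in splicing and transcript processing were first read at the level of the whole gene. Of 20, 16 were tested, 2 lay below the filter, and SMN1 and SMN2 share their rows. None passed, 10 were negative and 6 positive, and the median was -0.0632 (-0.0115 with the offset). FXR1, a relative of the fragile X protein, had 292 and 158 CPM under SAM68 siRNA and 295 and 274 CPM under control siRNA. ENAH, an actin regulator, had 240 and 204 CPM under SAM68 siRNA and 229 and 289 CPM under control siRNA, with overlapping groups.

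Isoform use was then read from the mean transcript length of each gene, weighted by the estimated share of each isoform, which moves when a longer or shorter isoform takes a larger share. It cannot see exons of nearly equal length swapped for each other, and it reads only annotated transcripts. Of 5673 genes with a testable length, limma called 0 (0%) at an adjusted p below 0.05. At an unadjusted p below 0.05 there were 171 (3.01%), and lengths did not overlap between the groups in 29.7%. The mean length under SAM68 siRNA was within 1% of the control length in 71.4% of genes. A difference of at least 10% was seen in 94 genes.

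Of the reported SAM68 targets 11 had a testable length and none had an unadjusted p below 0.05. CD44, a hyaluronan receptor whose variable exons are a textbook target of SAM68, had mean lengths of 4492 and 4544 bases under SAM68 siRNA and 4547 and 4498 bases under control siRNA. BCL2L1, whose splicing yields a long antiapoptotic and a short proapoptotic form, had 2535 and 2571 bases under SAM68 siRNA and 2573 and 2552 bases under control siRNA. SRSF1, a splicing factor whose own 3′ UTR intron is a reported target, had 5336 and 5363 bases under SAM68 siRNA and 5363 and 5332 bases under control siRNA. In all 3 genes the groups overlapped. RPS6KB1, which encodes S6 kinase 1, had 5346 and 5358 bases under SAM68 siRNA and 5362 and 5358 bases under control siRNA, and its groups were parted by less than 1 base. Of the 11 targets, 2 had groups that did not overlap, where 29.7% of all tested genes did.

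The leading length differences lay in other genes, and none passed the test (adjusted p = 1 for each, limma). KALRN, a guanine nucleotide exchange factor with many isoforms, had 4703 and 4898 bases under SAM68 siRNA and 5462 and 5657 bases under control siRNA, a mean difference of -759 bases. IL24, a cytokine, had 1819 and 1825 bases under SAM68 siRNA and 1923 and 1915 bases under control siRNA, from 24.7 to 40.7 counts per library. RAP2C, a small GTPase, had 3747 and 3784 bases under SAM68 siRNA and 3916 and 3930 bases under control siRNA. The noncoding RNA GLIDR was also among the leading shorter genes, at -118 bases. Toward longer transcripts, NQO2, a quinone reductase, had 1377 and 1360 bases under SAM68 siRNA and 1293 and 1274 bases under control siRNA. PPFIA1, a liprin of cell adhesions, had 5059 and 5047 bases under SAM68 siRNA and 4914 and 4877 bases under control siRNA. ELFN2, a leucine-rich repeat membrane protein gene, was 243 bases longer under SAM68 siRNA, and ZFPM2-AS1 and TMEM134 were 71.4 and 17.9 bases longer. These 9 genes were chosen by the smallest unadjusted p among genes whose groups did not overlap. That the libraries of a group lay close together in them follows from this choice.

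Innate immune genes were examined because double-stranded RNA can induce them. Of 35 interferon-stimulated genes 27 were tested, and none passed the test. Negative log2 fold changes were seen in 20 of the 27, with a median of -0.155 (-0.10 with the offset), and the groups did not overlap in 8 toward lower and in 1 toward higher values, beside 9.42% and 9.46% of all tested rows. IFIT1, which binds uncapped viral RNA, had 16.5 and 12.2 CPM under SAM68 siRNA and 22.5 and 19.8 CPM under control siRNA (log2 fold change -0.56 ± 0.24, SE). USP18, which restrains interferon signalling, had 2.62 and 2.75 CPM under SAM68 siRNA and 4.58 and 3.71 CPM under control siRNA. IFIT2 had 1.44 and 0.849 CPM under SAM68 siRNA and 1.84 and 1.81 CPM under control siRNA. All 3, the members with the smallest unadjusted p, were lower in both libraries under SAM68 siRNA. The median over the list was -0.0258 in SAM68 siRNA replicate 1 and -0.263 in replicate 2 over the control mean, and it stayed negative whichever library was left out, from -0.248 to -0.0313.

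NF-kB and inflammatory genes, which respond to related signals, had 18 tested members of 22, with 12 positive and 6 negative, a median of 0.142 (0.149 with the offset) and no call. TRAF1, an adaptor of tumour necrosis factor receptors, had 2.62 and 7.24 CPM under SAM68 siRNA and 2.22 and 4.01 CPM under control siRNA. ICAM1, an adhesion molecule, had 0.507 and 1.20 CPM under SAM68 siRNA and 0.425 and 0.579 CPM under control siRNA. CSF2, a cytokine, had 0.423 and 0.549 CPM under SAM68 siRNA and 0.756 and 0.695 CPM under control siRNA. All 3 had low counts. The median was -0.108 without SAM68 siRNA replicate 2.

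Immediate early transcription factors, which are induced within minutes by growth factors and stress, had the highest median of the lists. Of 25, 24 were tested, 22 were positive and 2 negative, the median was 0.285 (0.258 with the offset), and the groups did not overlap in 6 toward higher and in 0 toward lower values, beside 9.46% and 9.42% of all tested rows. None passed the test. NR4A2, an orphan nuclear receptor, had 3.89 and 3.95 CPM under SAM68 siRNA and 1.98 and 2.47 CPM under control siRNA (log2 fold change 0.81 ± 0.30, SE). FOSB, an AP-1 subunit, had 1.01 and 1.45 CPM under SAM68 siRNA and 0.520 and 0.579 CPM under control siRNA. MYC, a growth regulator, had 139 and 152 CPM under SAM68 siRNA and 117 and 114 CPM under control siRNA (log2 fold change 0.33 ± 0.17, SE). In all 3 genes, the members with the smallest unadjusted p, both SAM68 siRNA libraries lay above both controls. Over the list, however, the median was -0.0184 in SAM68 siRNA replicate 1 and 0.542 in replicate 2 over the control mean, and it was also 0.381 in control replicate 2 over control replicate 1. Without SAM68 siRNA replicate 2 the median turned to -0.0398. Between libraries with the same replicate number, SAM68 over control siRNA, it was 0.223 for replicate 1 and 0.338 for replicate 2, and 15 of the 24 were higher in both, beside 22.7% of all tested rows with counts in all 4 libraries. The median GC content of the list was 56.0%.

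The integrated stress response, which slows translation and induces amino acid genes, had 20 positive and 6 negative among 26 tested genes, a median of 0.112 (0.111 with the offset) and no call. SLC7A1, an arginine transporter, had 200 and 214 CPM under SAM68 siRNA and 166 and 182 CPM under control siRNA. SLC7A5, a transporter of large neutral amino acids, had 605 and 722 CPM under SAM68 siRNA and 563 and 574 CPM under control siRNA. ATF5, a transcription factor of the response, had 43.0 and 46.8 CPM under SAM68 siRNA and 32.0 and 43.8 CPM under control siRNA, with overlapping groups. Leaving out single libraries moved the median between 0.0081 and 0.241. Endoplasmic reticulum chaperones had a median of -0.00298 (-0.00706 with the offset) over 18 genes. DNAJC3, an inhibitor of the kinase PERK, was at 27.2 and 13.3 CPM under SAM68 siRNA and at 37.6 and 31.0 CPM under control siRNA (log2 fold change -0.77 ± 0.32, SE). HSP90B1, an abundant chaperone, had 1064 and 648 CPM under SAM68 siRNA and 1071 and 1037 CPM under control siRNA. SDF2L1 had 12.2 and 16.2 CPM under SAM68 siRNA and 21.1 and 14.8 CPM under control siRNA, with overlapping groups.

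Cell division genes leaned toward lower values without any call. Of 47 mitotic genes, all tested, 41 were negative and 6 positive, where 51.4% of all rows were negative, with a median of -0.123 (-0.0876 with the offset). The groups did not overlap in 4 of the 47 toward lower and in 1 toward higher values, beside 9.42% and 9.46% of all tested rows. The median of the list was 0.00687 in SAM68 siRNA replicate 1 and -0.37 in replicate 2 over the control mean, and -0.174 in control replicate 2 over control replicate 1. Between libraries with the same replicate number, SAM68 over control siRNA, it was -0.075 for replicate 1 and -0.266 for replicate 2, and 16 of the 47 were lower in both, beside 21.6% of all tested rows with counts in all 4 libraries. Without SAM68 siRNA replicate 2 the median turned to 0.00234, and the median GC content of the list was 42.7%. BUB1B, a checkpoint protein, had 128 and 78.1 CPM under SAM68 siRNA and 145 and 139 CPM under control siRNA. BUB1, a checkpoint kinase, had 253 and 161 CPM under SAM68 siRNA and 295 and 262 CPM under control siRNA. TOP2A, the topoisomerase of chromosome condensation, had 957 and 466 CPM under SAM68 siRNA and 1070 and 914 CPM under control siRNA, with overlapping groups. In all 3 genes SAM68 siRNA replicate 2 was the lowest library.

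Among 50 genes of DNA replication and repair 35 were negative and 15 positive, with a median of -0.0387 (-0.0336 with the offset). FANCI, of the Fanconi anaemia pathway, had 184 and 105 CPM under SAM68 siRNA and 218 and 179 CPM under control siRNA. RRM1, a subunit of ribonucleotide reductase, had 254 and 206 CPM under SAM68 siRNA and 296 and 265 CPM under control siRNA. POLA1, the catalytic subunit of DNA polymerase alpha, had 66.6 and 36.1 CPM under SAM68 siRNA and 69.0 and 65.1 CPM under control siRNA. RRM1 had no overlap between the groups, while the other two had an upper SAM68 siRNA library within the control range. The 27 tested p53 targets split into 13 positive and 14 negative, with a median of -0.000887 (-0.00633 with the offset). CCNG1, a p53-induced cyclin, had 228 and 166 CPM under SAM68 siRNA and 286 and 231 CPM under control siRNA. ZMAT3 had 68.8 and 40.3 CPM under SAM68 siRNA and 74.1 and 65.1 CPM under control siRNA. GADD45A, a DNA damage gene, had 39.1 and 35.2 CPM under SAM68 siRNA and 32.0 and 31.6 CPM under control siRNA.

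Genes of metabolism and protein synthesis had medians near 0 over lists whose SAM68 siRNA libraries went opposite ways, and none of their members passed. Cholesterol synthesis had a median of -0.021 (-0.00422 with the offset) over 23 genes, with -0.122 in SAM68 siRNA replicate 1 and 0.138 in replicate 2 over the control mean. SREBF2, the transcription factor that drives this pathway, had 187 and 301 CPM under SAM68 siRNA and 180 and 247 CPM under control siRNA, while IDI1 had 28.2 and 21.5 CPM under SAM68 siRNA and 29.2 and 26.4 CPM under control siRNA. Hypoxia and glycolysis genes had 15 positive and 15 negative values and a median of -0.00731 (-0.0148 with the offset), with -0.118 in SAM68 siRNA replicate 1 and 0.0817 in replicate 2 over the control mean. PFKP, a phosphofructokinase, had 54.1 and 55.5 CPM under SAM68 siRNA and 63.7 and 62.9 CPM under control siRNA, and its groups did not overlap. PDK1, which inhibits pyruvate dehydrogenase, and ANKRD37, a target of hypoxia-inducible factor, had log2 fold changes of 0.27 ± 0.23 and -0.64 ± 0.45 (SE).

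Of 77 ribosomal protein genes 74 were tested, with 42 positive and 32 negative and a median of 0.0092 (0.0461 with the offset). RPL7 had 1170 and 1127 CPM under SAM68 siRNA and 1454 and 1243 CPM under control siRNA. RPS3A had 921 and 889 CPM under SAM68 siRNA and 1145 and 978 CPM under control siRNA. RPS27A, which encodes a ubiquitin fusion, had 382 and 572 CPM under SAM68 siRNA and 885 and 489 CPM under control siRNA in its main row. Summed over its 3 rows it had 945 and 1194 CPM under SAM68 siRNA and 1235 and 1152 CPM under control siRNA, and the sums overlapped. The ribosomal median was -0.149 in SAM68 siRNA replicate 1 and 0.148 in replicate 2 over the control mean.

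None of the genes that mark the identity of the cells passed the test. Of 28 tested matrix, mesenchymal and bone genes 15 were positive and 13 negative, with a median of 0.0161 (0.0917 with the offset). It was -0.256 in SAM68 siRNA replicate 1 and 0.205 in replicate 2 over the control mean. The groups did not overlap in 3 toward higher and in 3 toward lower values, beside 9.46% and 9.42% of all tested rows. BMP4, a bone morphogenetic protein, had 86.4 and 96.4 CPM under SAM68 siRNA and 106 and 120 CPM under control siRNA (log2 fold change -0.31 ± 0.18, SE). BMP2 had 2.37 and 2.90 CPM under SAM68 siRNA and 3.87 and 3.32 CPM under control siRNA. CCN2, a matrix-associated target of YAP and transforming growth factor beta, had 214 and 369 CPM under SAM68 siRNA and 197 and 238 CPM under control siRNA, with overlapping groups. Only 9 of 28 genes of epithelium, colon, blood and other cell types passed the filter on low counts, with a median of -0.0352 (-0.0539 with the offset). It was -0.395 in SAM68 siRNA replicate 1 and 0.179 in replicate 2 over the control mean. KRT18, a simple epithelial keratin that many cultured lines express, had 396 and 385 CPM under SAM68 siRNA and 365 and 317 CPM under control siRNA. CDH1, the epithelial cadherin, had 3.64 and 2.65 CPM under SAM68 siRNA and 2.60 and 1.85 CPM under control siRNA, and PTPRC, a leukocyte phosphatase, had 0.592 and 0.350 CPM under SAM68 siRNA and 0.945 and 0.695 CPM under control siRNA.

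Over the 21 lists, 523 of the genes were tested, 0 passed edgeR's test and 6 had an unadjusted p below 0.05 (KHDRBS1, AGO3, IFIT1, USP18, NR4A2 and DNAJC3), a share close to the 1.06% of all tested rows. DESeq2 called KHDRBS1 among them, and the SMN2 copy row outside them. List medians had opposite signs in the SAM68 siRNA libraries, each over the control mean, in 17 of the 21 lists. In 4 lists (STAR family, CCR4-NOT, interferon-stimulated genes and the integrated stress response) the median kept its sign whichever library was left out. CCR4-NOT was nevertheless among the 17 lists with opposite signs, at 0.0553 in SAM68 siRNA replicate 1 and -0.0608 in replicate 2.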

How the data were processed

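Poly(A) RNA of 4 U2OS libraries was compared, 2 per siRNA. RNA was isolated with TRI reagent and sequenced with a stranded kit, per the labels' protocols. The submitters' processing notes name STAR, RSEM and the build hg19. Neither versions nor a strand setting for the counting is given in the sources used here. The authors deposited, per library, RSEM expected counts (estimated counts per gene), TPM and mean transcript lengths in bases over RefSeq transcripts, per the file headers.

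Expected counts were rounded, filtered with filterByExpr, scaled by TMM and tested with edgeR 4.0.16 (quasi-likelihood, R 4.3.3) over all 8 U2OS libraries in 4 groups without a replicate block. The adjusted p (Benjamini-Hochberg) had to be below 0.05 over 15658 rows, and the biological coefficient of variation was 20%. CPM are scaled by TMM, SD has n = 2, and an SE is the log2 fold change over the square root of F. Log2 lengths of genes with a mean count of at least 50 and a range of at least 10 bases were tested with limma 3.58.1. DESeq2 1.42.0 and other alternatives are given in the closing section. Same-numbered libraries deviated together (correlation 0.378 over genes), but the labels do not say that a number marks a shared day or culture.

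Of 27434 rows, 25321 were named from RefSeq (GRCh38.p14) by a single NCBI gene number, and others by joined gene numbers or by transcripts. A further 1189 rows were copies of a gene elsewhere in the genome, and 167 had no name (0.0341% of counts). GC content and motifs came from GENCODE release 29 (GRCh38), another build than that of the files, with GC content for 94.9% of tested rows.

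Named genes were KHDRBS1, KHDRBS3, QKI, SF1, NORAD and PUM2; rows called by either tool; the 12 higher and 12 lower genes with the smallest p, groups that did not overlap and at least 5 CPM in the higher one; the 3 members of each list with the smallest p; and, for length, the 5 longer and 5 shorter genes with the smallest p and the reported targets. The genes beyond a 2-fold difference were added after their values were seen. The genes, the 21 lists and the tests were chosen with earlier results of these data known. Some genes that these rules name are not reported here.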

Additional observations from a re-analysis of the deposited data

How the results depend on the processing

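KHDRBS1 kept its direction in every alternative. It passed the threshold without a filter on low counts (log2 fold change -1.95, adjusted p = 1.46e-08 in edgeR), without SAM68 siRNA replicate 1 and with DESeq2 (-1.90). Leaving out single libraries moved it between -2.26 and -1.61. The count of called rows, 1 in the fit above, was 27 without the filter, 0 with the 4 siRNA libraries alone, 0 with the GC and length offset, a fit of 14853 rows that leaves out the ZBED1 copy because it has no GC content, 7 with DESeq2, and 0 to 5 when a library was left out (2 and 5 without SAM68 siRNA replicates 1 and 2, 1 and 0 without control siRNA replicates 1 and 2). At an unadjusted p below 0.05, edgeR gave 98 rows with the siRNA libraries alone and 304 with the offset. The number rose further when either SAM68 siRNA library was left out, in fits that keep a single library of that group. The cause of the other shifts was not tested.

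With the replicate number as a block, 0 rows passed (199 at an unadjusted p below 0.05), and KHDRBS1 had an adjusted p of 0.133 in edgeR. The count of called lengths, 0 in the fit above, was 0 under the block (185 at an unadjusted p below 0.05 in limma), and it lay between 0 and 1 when a library was left out (1 without either SAM68 siRNA library and without control siRNA replicate 2).

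Of 971 values of the named genes under alternatives, 938 kept their direction and side of the threshold, 15 became stronger, 3 weaker and 15 reversed, all 15 of them when 1 library was left out. Their ranges of log2 fold change were -0.0281 to 0.845 for CCN2, -0.766 to 0.032 for CDC5L, -0.623 to 0.00703 for CDK1, -0.493 to 0.00193 for DHX9, -0.765 to 0.0353 for FXR1, -0.669 to 0.162 for HNRNPH1, -0.617 to 0.011 for HSP90B1, -0.284 to 0.0154 for IDI1, -0.821 to 0.0492 for PIK3R1, -0.652 to 0.0236 for PUM2, -0.0389 to 0.208 for QKI, -0.851 to 0.0181 for RPS27A, -0.825 to 0.0879 for SIRT1, -0.191 to 0.579 for SREBF2 and -0.263 to 1.29 for TRAF1. Of 166 values of named lengths 18 reversed. Leaving out single libraries moved the log2 length difference from -0.0153 to 0.00501 for BCL2L1, from -0.00118 to 0.026 for BIN1, from -0.0098 to 0.00679 for CD44, from -0.00111 to 0.000879 for FXR1, from -0.00105 to 0.00277 for KHDRBS1, from -0.00638 to 0.0155 for NRXN2, from -0.0204 to 0.0312 for NRXN3, from -0.00402 to 0.011 for SGCE and from -0.00364 to 0.00468 for SRSF1. With effective length in place of length it was -0.000841 for SRSF1, -0.000895 for SGCE and -0.00174 for KHDRBS1.

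There were 2 libraries per group, with the lowest depth in SAM68 siRNA replicate 1. A log2 difference far larger than the median standard error of 0.228 could therefore go uncalled. KHDRBS1, at a log2 fold change of -1.94 ± 0.25 (SE), did not pass edgeR's test in the main fit. List medians turned sign in 11 of 21 lists without SAM68 siRNA replicate 2 and in 9 without replicate 1.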
